A study of Mus musculus with 80 samples.

Results

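The acute phase proteins described here are 10 genes of the mouse liver, chosen by symbol from a table of 78275 gene rows: the serum amyloid A genes Saa1, Saa2, Saa3 and Saa4, the orosomucoid genes Orm1 and Orm2, the lipocalin Lcn2, the haptoglobin gene Hp, the protease inhibitor Serpina3n and the C-reactive protein gene Crp. All 10 were found once and all 10 passed the filter on low counts, as did 21187 of the 78275 genes. They were measured by stranded poly(A) RNA sequencing in 80 livers of C57BL/6J mice aged 8 to 12 weeks, 40 fed controls and 40 fasted mice, each liver from a separate animal. Mice had chow and lived in groups under 12 h of light and 12 h of darkness before being moved to constant darkness, and livers were taken at 10 circadian times (CT, in hours) from CT8 to CT44. Food was removed from the fasted mice at CT10, so the group called fasted at CT8 still had food. Each of the 20 combinations of treatment and time held 4 mice, 2 males and 2 females. Controls and fasted mice shared the strain, the diet before CT10 and the darkness, and differed in food after CT10.

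Acute phase proteins are plasma proteins whose output by the liver changes within hours of injury or infection. Interleukin-6 acts on hepatocytes through its receptor and the transcription factor STAT3, interleukin-1 and tumour necrosis factor act through NF-kB, and C/EBP factors and the glucocorticoid receptor act on many of the same promoters. SAA1 and SAA2 are apolipoproteins of high-density lipoprotein that are induced strongly in this response, whereas SAA4 is made constitutively. Orosomucoids bind drugs and dampen immune cells, lipocalin 2 withholds iron from bacteria by binding their siderophores, haptoglobin binds free haemoglobin, and SERPINA3N inhibits serine proteases. C-reactive protein, the main acute phase marker in human plasma, responds little in mice.

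Library totals lay between 25534901 and 59927771 counts with a median of 42303883. The titles and the sample characteristics disagreed on sex in 40 libraries and on treatment in 40, and the titles were used for both. The sex-linked RNAs Xist and Ddx3y went with the sex of the titles in each of the 80 libraries, while the treatment was not checked in this way. Hepatocyte markers were abundant in every library from CT12 on, with a summed level of 68424 to 119347 CPM in controls (CPM is the count scaled to the library total) and 84781 to 145486 CPM in fasted mice. The lowest chi-square per degree of freedom between mice of one group was 14.8 over 120 pairs, so no pair agreed within sampling noise. The 3 mice that stood farthest from the others in the acute phase genes are named throughout by group, sex and replicate number: control CT36 male 1, control CT40 male 1 and fasted CT24 male 1. Main results that rest on them are given with all 80 mice and again without these 3, a comparison chosen after the data were seen.

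The 4 Saa genes lie together on chromosome 7, and their promoters are shown because Saa1 and Saa2 varied together from mouse to mouse, with a Pearson r of 0.976 over the 40 pairs of mice described further on. Saa3 had an r of 0.728 and 0.770 with them, while the r of Saa4 was 0.326 with Saa1 and 0.246 with Saa2. Lcn2, which lies on another chromosome, had an r of 0.903 with Saa1. The sequences are the 250 bases before the start of the gene, 5' to 3' on the gene's own strand, from RefSeq on build GRCm38.p6, and capitals mark matches to the C/EBP letters TTGCNNAA on either strand.
Saa1, chr7:46742981-46743230 (minus strand): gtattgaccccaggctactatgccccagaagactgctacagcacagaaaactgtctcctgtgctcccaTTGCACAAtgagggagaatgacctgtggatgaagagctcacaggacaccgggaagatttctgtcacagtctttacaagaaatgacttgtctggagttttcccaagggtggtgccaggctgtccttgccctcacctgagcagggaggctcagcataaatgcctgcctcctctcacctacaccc
Saa2, chr7:46751583-46751832 (plus strand): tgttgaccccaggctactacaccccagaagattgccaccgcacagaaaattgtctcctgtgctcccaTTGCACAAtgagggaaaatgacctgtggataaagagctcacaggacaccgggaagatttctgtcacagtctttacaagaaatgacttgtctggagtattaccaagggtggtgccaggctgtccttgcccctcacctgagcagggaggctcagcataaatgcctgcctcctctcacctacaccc
Saa3, chr7:46715677-46715926 (minus strand): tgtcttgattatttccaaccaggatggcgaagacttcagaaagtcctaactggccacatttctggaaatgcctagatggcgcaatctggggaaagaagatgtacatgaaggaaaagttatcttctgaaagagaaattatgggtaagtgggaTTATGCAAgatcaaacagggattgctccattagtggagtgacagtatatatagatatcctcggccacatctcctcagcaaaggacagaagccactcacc
Saa4, chr7:46732604-46732853 (minus strand): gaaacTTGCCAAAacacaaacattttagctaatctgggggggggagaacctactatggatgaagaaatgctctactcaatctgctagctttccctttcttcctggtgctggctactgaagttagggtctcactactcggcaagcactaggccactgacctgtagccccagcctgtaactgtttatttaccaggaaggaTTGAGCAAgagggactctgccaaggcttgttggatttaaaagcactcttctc
Saa1 and Saa2 are transcribed away from each other, and over the whole window of 300 bases (250 before and 50 after the start) their promoters were 95.3% identical along 301 aligned columns. The other pairs among the 4 promoters were 48.4% to 54.2% identical. A C/EBP match was present in 6 of the 8 members found in the promoter table (Saa1 to Saa4, Orm2 and Lcn2) and in 10.8% of all 32851 promoters. The NF-kB motif, as searched, was in 0 of 8 (1.47% of all promoters) and the STAT letters TTCNNNGAA in 0 of 8 (8.3% of all). The glucocorticoid receptor letters ACANNNTGT were in Lcn2 and Serpina3n, 2 of 8, against 6.85% of all. These matches describe letters in a window and not binding.

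Levels differed widely between members once transcript length was taken into account. In the 40 controls the median level per kilobase of coding transcript was highest for Hp at 1079 CPM per kb, then Orm1 at 711, Crp at 201, Serpina3n at 169, Saa4 at 109, Saa1 at 50.6, Saa2 at 20.4, Orm2 at 14.8, Lcn2 at 5.28 and Saa3 at 3.61 CPM per kb. The quartiles of neighbours in this order overlapped for Crp (169 to 232) and Serpina3n (154 to 181), for Serpina3n and Saa4 at its upper end, for Saa4 and Saa1, for Saa2 and Orm2, for Orm2 and Lcn2, and for Lcn2 and Saa3. Reads could be shared between near copies: 4.49% of the 76-base windows of Saa1 occurred also in Saa2, and 13.6% of those of Orm1 also in Orm2. Crp overlaps the gene Gm38051 on the same strand.

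Single mice set the highest values of these genes. In control CT36 male 1, Saa1 reached 5423 CPM, against 81.1 CPM in the other male and 20.6 and 24.3 CPM in the females of the same group. In control CT40 male 1, Saa1 reached 5824 CPM, against 79.4, 29.5 and 19.99 CPM in the other mice of that group. In fasted CT24 male 1, Saa1 reached 3620 CPM, against 31.1, 12.8 and 26.2 CPM. The next highest mouse of the series, control CT20 male 2, had 534 CPM.

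**Figure D1:**
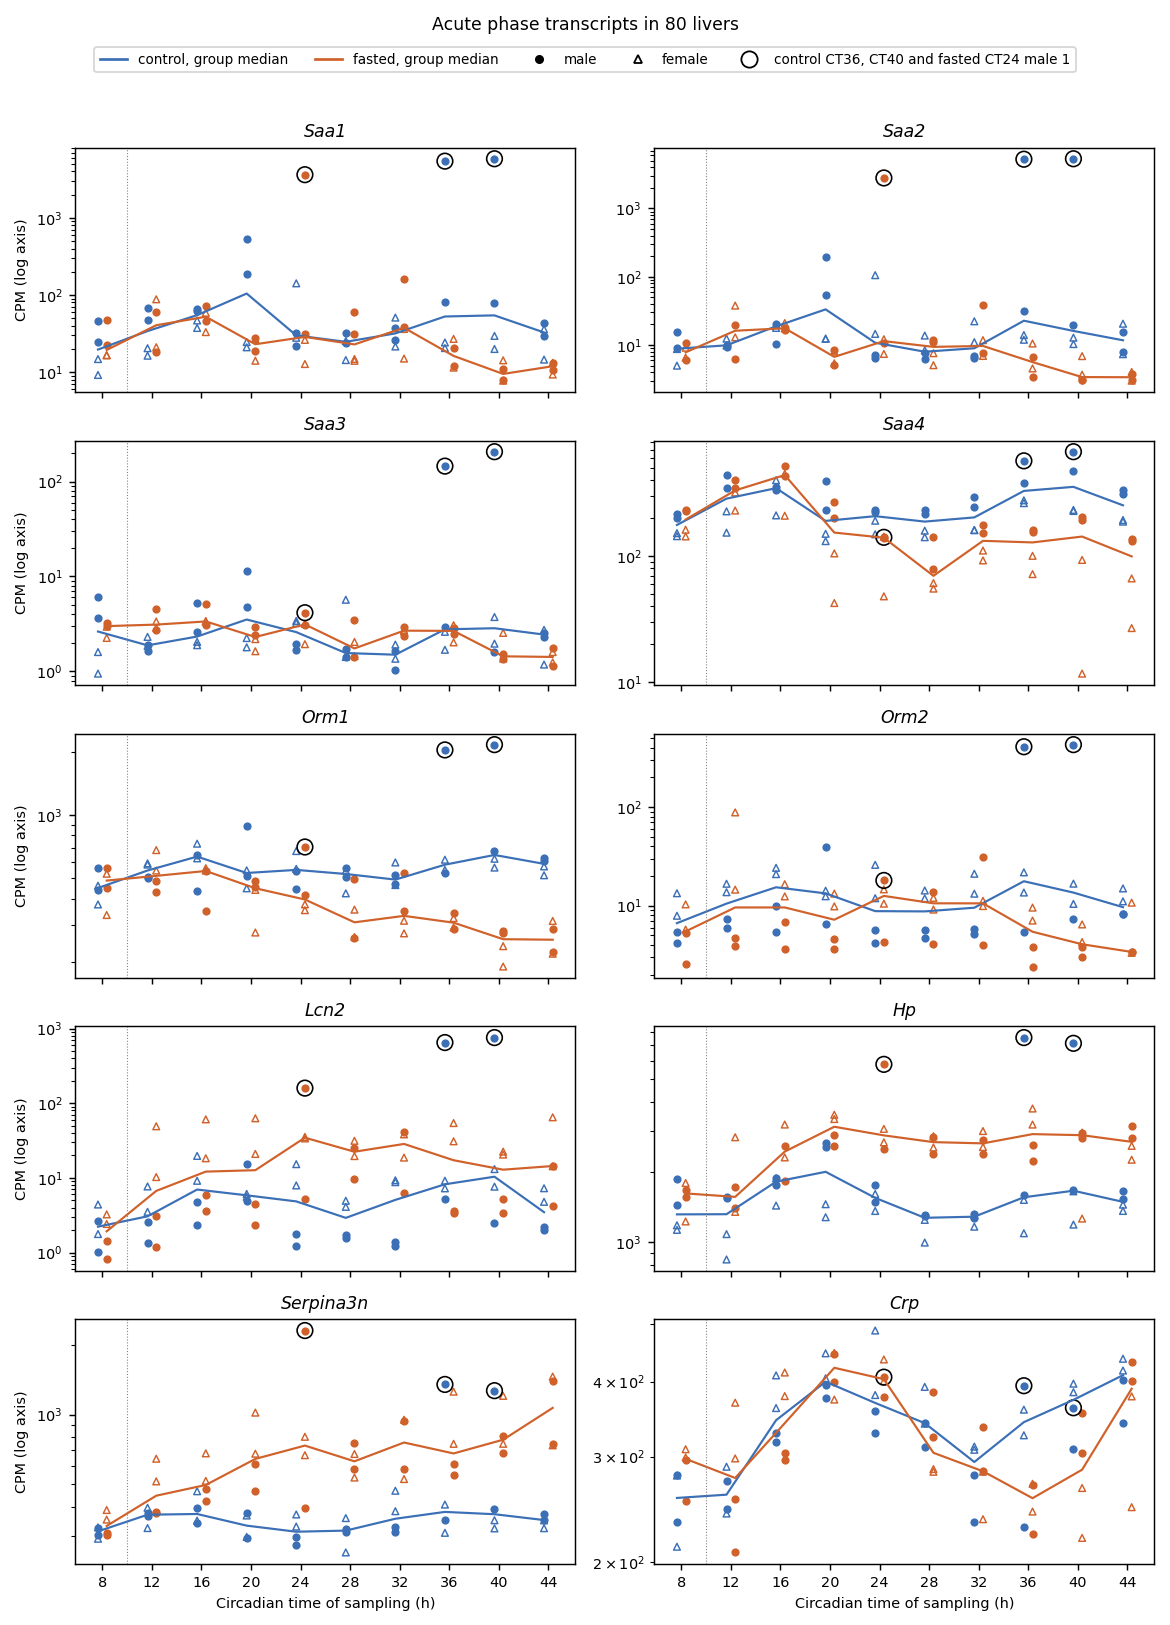
Level of each of the 10 acute phase genes in every mouse (CPM, log axis) against circadian time (CT, hours), controls and fasted mice in separate colours with males and females as separate symbols. The 3 ringed mice, control CT36, control CT40 and fasted CT24 male 1, stand far above the rest in Saa1 (5423, 5824 and 3620 CPM), Saa2 and Lcn2, and do not stand apart in Crp.

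In the 2 control males, 9 of the 10 members lay above all 18 other control males, and only Crp did not. Among all genes tested, 4.80% lay above every other control male in control CT36 male 1 and 7.12% in control CT40 male 1. Relative to the median of those 18 mice, Saa2 was 547-fold higher in control CT36 male 1 and 555-fold in control CT40 male 1, Lcn2 313-fold and 365-fold, Saa1 122-fold and 131-fold, Orm2 70.8-fold and 74.3-fold, and Saa3 68.0-fold and 96.5-fold. Orm1 was 3.88-fold and 4.11-fold higher, Hp 4.77-fold and 4.50-fold, Serpina3n 4.03-fold and 3.79-fold, and Saa4 1.87-fold and 2.21-fold. Crp was at 1.25-fold and 1.15-fold, inside the range of the other control males. Saa2, Lcn2 and Saa1 had the 3 highest excesses of all 21187 genes in both mice, and Orm2 and Saa3 were among the 6 highest.

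The fasted male was high in fewer members. Of the 10 members, 6 lay above all 17 other fasted males, where 5.87% of all genes did so, and these were Saa2 at 367-fold over the others' median, Saa1 at 131-fold, Lcn2 at 35.9-fold, Serpina3n at 3.96-fold, Hp at 2.24-fold and Orm1 at 2.01-fold. Saa3 stayed at 4.15 CPM in this mouse, within the 1.14 to 5.11 CPM of the other fasted males, although Saa3 was among the 6 most raised of all genes in the 2 control males. Orm2 too stayed within the range of the others (2.41 to 31.0 CPM). Saa4 at 141 CPM and Crp at 407 CPM were not above the others either. Saa2 and Saa1 ranked 1 and 2 of all genes by their excess in this mouse and Lcn2 ranked 4.

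**Figure D2:**
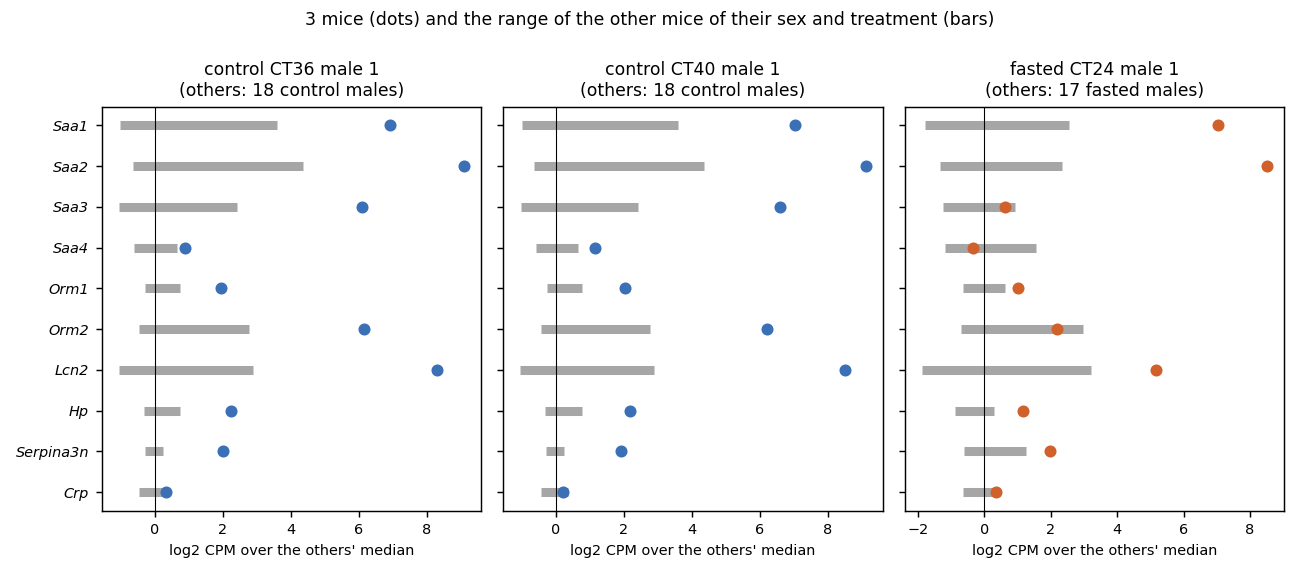
Each acute phase gene in control CT36 male 1, control CT40 male 1 and fasted CT24 male 1 (dots), as log2 of CPM over the median of the other mice of the same sex and treatment. Grey bars give the range of those other mice on the same scale. The dots of the 2 control males lie above the bars in 9 of 10 genes, and those of the fasted male in 6 of 10, with Saa3 (4.15 CPM) and Orm2 inside the bars.

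Other genes of the response were also high in these 3 mice. Of 25 further positive acute phase genes, 14, 15 and 10 were above all other mice of the sex and treatment in control CT36 male 1, control CT40 male 1 and fasted CT24 male 1. Of all genes, 4.80%, 7.12% and 5.87% were above all others in these mice, the share for every such count in this paragraph. Of 10 negative acute phase genes, whose plasma proteins fall in inflammation, 4, 1 and 2 were below all others, where 3.71%, 5.97% and 4.41% of all genes were, and 1, 3 and 1 were above. Of the cytokines that start the response, 0 of the 5 measured were above all others in any of the 3, and Il6 itself, at 0 to 12 counts per library with a median of 1, was below the filter. Neutrophil markers, among them S100a8, S100a9 and granule genes such as Mpo and Ltf, were above all others for 7, 7 and 0 of 9 measured. Their summed levels were 5.36, 7.44 and 1.44 CPM. From CT12 on, the range was 0.342 to 7.44 CPM over controls (median 1.02) and 0.105 to 7.75 CPM over fasted mice (median 1.80). None of the 10 neutrophil markers was at 0 in every library. Macrophage markers were above all others for 3, 7 and 0 of 8, with summed levels of 440, 513 and 235 CPM. From CT12 on, they summed to 249 to 856 CPM in controls and 168 to 537 CPM in fasted mice. The part of these cells in the members' levels was not tested, and in whole liver more cells of a type and more RNA per cell cannot be told apart.

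Milder excesses occurred in 4 further mice, compared with the rest of their sex and treatment without the 3 above. These 4 were picked by hand after their values were seen. Control CT20 male 2 exceeded all 17 others in 7 members, with Saa1 at 534 CPM (12.3-fold over their median), Saa2 at 197 CPM (21.3-fold), Orm2 at 39.3 CPM, Lcn2 at 15.5 CPM and Saa3 at 11.4 CPM, where 5.80% of all genes did so. Control CT24 female 1 exceeded all 19 others in Saa1 (142 CPM), Saa2 (105 CPM) and Orm2 (25.9 CPM), against 2.11% of all genes. Fasted CT12 female 2 exceeded all 17 others in Saa1 (88.0 CPM), Saa2 (37.8 CPM), Orm1 (681 CPM) and Orm2 (88.2 CPM), against 9.80% of all genes. Fasted CT32 male 2 exceeded all 16 others in Saa1 (162 CPM), Saa2 (38.1 CPM), Orm2 (31.0 CPM) and Lcn2 (41.2 CPM), against 5.87%. Saa1 and Saa2 were above all others in each of these 4, and Crp in none, which describes the choice of mice and is no test. The neutrophil list was above all others for 2, 0, 5 and 5 of 9 genes in the same order of mice. Red cell markers were above all others for 0, 0, 5 and 4 of 5, and adipocyte markers for 0, 0, 2 and 0 of 3. The part of these cells in the members' values was not tested. Control CT20 male 1, compared in the same way, exceeded all 17 others in 0 of 10 members. It did so in 9 of 25 other positive acute phase genes, against 8.44% of all genes.

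The question the design puts to these genes is how their mRNA differs between fasted and fed livers from CT12 on. Averaged over CT12 to CT44 and both sexes in edgeR, 9 of the 10 members passed an adjusted p of 0.05, where 62.5% of all genes did. Of these, 3 were higher in fasted mice (Lcn2, Serpina3n, Hp; 29.5% of all genes) and 6 lower (Saa2, Saa1, Orm2, Saa4, Orm1, Saa3; 32.9% of all genes). The median log2 change was -0.65 over the members and -0.02 over all genes. At single times, 34 of 90 pairs of a member and a time from CT12 to CT44 were called, and 25.6% of all such pairs. Called members numbered 0 at CT8, before food was removed (1.33% of genes), 0 at CT12 (1.60%), 0 at CT16 (23.4%), 3 at CT20 (36.6%), 4 at CT24 (24.1%), 4 at CT28 (21.0%), 3 at CT32 (17.7%), 7 at CT36 (26.8%), 8 at CT40 (39.9%) and 5 at CT44 (39.4%). At CT8, CT12 and CT16, edgeR gave 0 members with an unadjusted p under 0.05, limma called 0 and DESeq2 called 0. With every mouse included, the members called at CT36 and CT40 were all lower in fasted mice. Without the 3 mice there were 5 calls at CT36 and 6 at CT40, with Hp and Serpina3n higher in fasted mice at both times. Calls rose from 0 to 1 at CT16 (Hp, higher), from 3 to 7 at CT20 (Hp and Serpina3n higher, Saa1, Saa2, Saa3, Orm1 and Orm2 lower), from 4 to 5 at CT28 and from 5 to 7 at CT44, and went from 4 to 3 at CT24. The controls at CT20 still held control CT20 male 2, which was high in these 5 lower members. With females alone or males alone, 0 members were called lower at CT20.

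**Figure D3:**
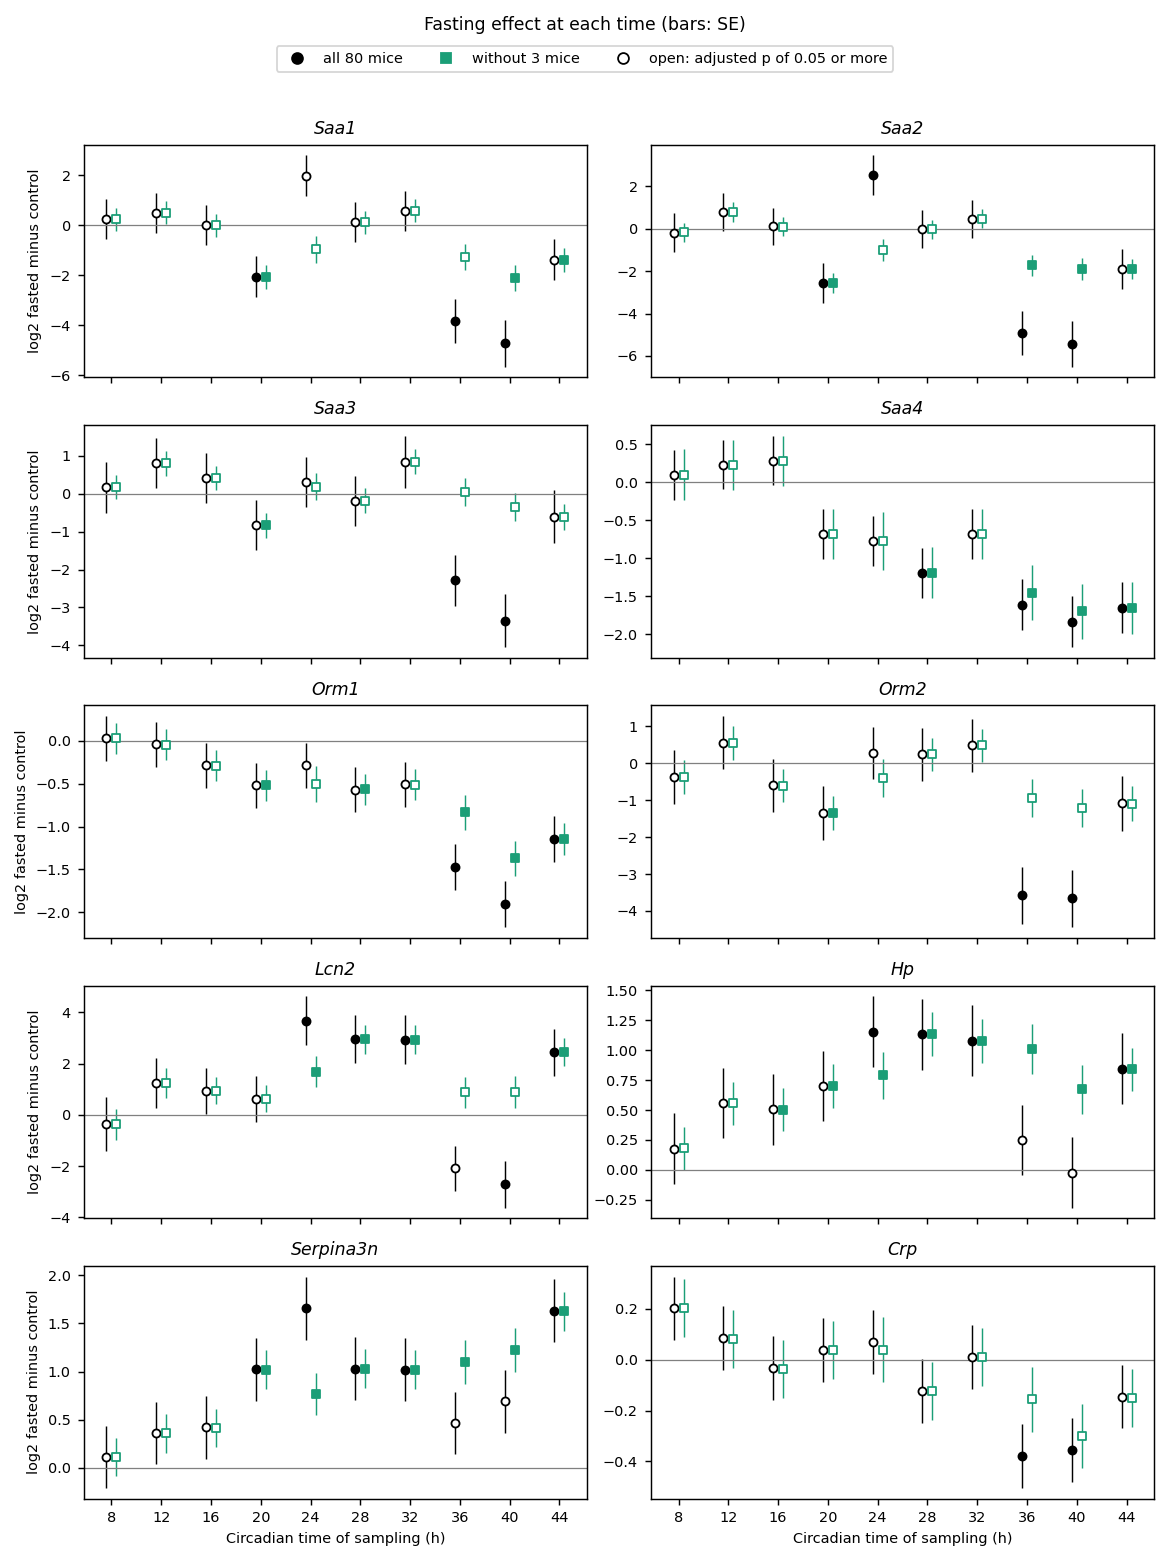
Difference between fasted and control mice (log2, with the standard error) at each circadian time for the 10 acute phase genes, with all 80 mice (black circles) and without the 3 outlying males (green squares), and open symbols where the adjusted p was 0.05 or more. For Saa1, Saa2, Saa3, Orm2 and Lcn2 the black circles at CT36 and CT40 lie far below the green squares (Saa1 at CT40: -4.72 against -2.12), and for Saa4 the 2 series nearly coincide.

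Saa1 and Saa2 were lower in fasted liver late in the fast, and part of that rested on single mice. Saa1 ranged from 14.4 to 5824 CPM in the 36 controls from CT12 on, with a median of 32.3, and from 7.77 to 3620 CPM in the 36 fasted mice, with a median of 20.9. At CT40 the fasted mice had 11.0, 8.02, 14.3 and 7.77 CPM (male 1, male 2, female 1, female 2, the order used from here on), all below the 4 controls. At CT44 the fasted mice had 10.7, 13.3, 9.33 and 13.3 CPM and the controls 29.5, 43.3, 14.6 and 36.0 CPM, again without overlap. Such separation, with fasted mice lower, held in 10.6% of cases over all genes and times. The mean change of Saa1 over the times was -0.98 ± 0.27 (log2 ± SE, adjusted p = 0.00151) with all mice and -0.73 (adjusted p = 0.000128) without the 3. The call was lost without control CT36 male 1 and control CT40 male 1 alone (-0.40, adjusted p = 0.0999), in females alone (-0.45, adjusted p = 0.0803) and without CT36 and CT40 (-0.04, adjusted p = 0.936). At CT40 alone it was -4.72 ± 0.93 (adjusted p = 5.66e-05), and -2.12 ± 0.52 (adjusted p = 0.00131) without the 3 mice. At CT36 the change of -3.81 ± 0.89 (adjusted p = 0.00103) became -1.27 ± 0.51 and lost its call (adjusted p = 0.0736). With all mice Saa1 was also called lower at CT20, by -2.05 ± 0.83 (adjusted p = 0.0471), where the controls held control CT20 male 2, a mouse high in Saa1.

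Saa2 followed the same course at a lower level. Its 36 controls had 6.16 to 5338 CPM with a median of 12.4, and its 36 fasted mice 3.01 to 2794 CPM with a median of 7.60. The fasted mice had 3.03, 3.73, 4.04 and 3.01 CPM at CT44, all below the controls at 8.00, 15.5, 7.35 and 20.5 CPM. The groups did not overlap at CT20, CT36 and CT40 either, always with the fasted mice lower. Over all genes and times, all 4 fasted mice were below all 4 controls in 10.6% of cases. The mean change of Saa2 was -1.21 ± 0.30 (adjusted p = 0.000543), and -0.85 (adjusted p = 1.26e-05) without the 3 mice. The call was lost without the 2 control males alone (-0.46, adjusted p = 0.0789) and without CT36 and CT40 (-0.08, adjusted p = 0.84). It was also lower at CT20, by -2.54 (adjusted p = 0.029), where control CT20 male 2 held 197 CPM. At CT24 Saa2 was called higher in fasted mice, at 2.54 (adjusted p = 0.0398), and this call rested on fasted CT24 male 1, since the change was -0.98 (adjusted p = 0.217) without the 3 mice. Counting Saa1 and Saa2 as 1 gene gave a mean change of -1.07 ± 0.28 (adjusted p = 0.00081).

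Saa3, a form that macrophages and adipocytes also make, had the lowest level per length of the members. It lay between 1.04 and 207 CPM in controls (median 2.00) and between 1.14 and 5.11 CPM in fasted mice (median 2.59). Its highest values, 146 and 207 CPM, were those of control CT36 male 1 and control CT40 male 1. The mean change of -0.54 ± 0.22 (adjusted p = 0.031) turned to 0.03 (adjusted p = 0.893) without the 3 mice. The same held at CT36 (-2.28, then 0.05) and at CT40 (-3.35, then -0.35, adjusted p = 0.529). At CT12 and CT32 all 4 fasted mice were above all 4 controls in Saa3, as 10.4% of all cases were, and neither difference passed the test.

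Saa4, the constitutive member, fell by much the same amount with and without the 3 mice. Its controls had 132 to 673 CPM with a median of 231 and its fasted mice 11.7 to 523 CPM with a median of 142. At CT40 the fasted mice had 203, 193, 93.3 and 11.7 CPM and the controls 673, 476, 228 and 233 CPM. At CT44 they had 136, 133, 26.9 and 66.6 CPM against 313, 336, 188 and 193 CPM. The groups did not overlap at CT24, CT36, CT40 and CT44, with the fasted mice lower, as in 10.6% of cases over all genes and times. The mean change was -0.88 ± 0.11 (adjusted p = 1.79e-09), -0.85 without the 3 mice, and -0.64 without CT36 and CT40. It was called lower at CT28 (-1.19, adjusted p = 0.00682), CT36 (-1.61), CT40 (-1.83, adjusted p = 1.94e-05) and CT44 (-1.65, adjusted p = 9.18e-05), with and without the 3 mice.

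Orm1, the abundant orosomucoid, was lower in fasted mice at CT36, CT40 and CT44, and without the 3 mice also at CT20 (-0.52, adjusted p = 0.0244) and CT28 (-0.57, adjusted p = 0.0233). The controls at CT20 still held control CT20 male 2, which was high in Orm1. At CT40 the fasted mice had 280, 276, 238 and 191 CPM and the controls 2157, 672, 562 and 619 CPM. At CT44 they had 223, 288, 314 and 219 CPM against 602, 621, 570 and 517 CPM. All fasted mice were below all controls at CT36, CT40 and CT44, as in 10.6% of cases over all genes and times. The mean change of Orm1 was -0.75 ± 0.09 (adjusted p = 4.17e-10), and -0.64 without the 3 mice. Its change at CT44, where none of the 3 mice belongs, was -1.14 (adjusted p = 0.00054), and at CT40 it was -1.91 with all mice and -1.37 (adjusted p = 8.14e-07) without the 3.

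Orm2 was present at a far lower level per length, and its calls at CT36 and CT40 were lost without the 3 mice. It lay between 4.22 and 429 CPM in controls (median 11.9) and between 2.41 and 88.2 CPM in fasted mice (median 6.91). Its fasted values at CT40 were 3.85, 3.05, 6.45 and 4.27 CPM, below all controls at 429, 7.24, 10.4 and 16.7 CPM. Such separation held in 10.6% of cases over all genes and times. The mean change of -0.97 ± 0.24 (adjusted p = 0.000548) shrank to -0.48 (adjusted p = 0.00998) without the 3 mice and to -0.21 (adjusted p = 0.371), with no call, without CT36 and CT40. Without the 3 mice Orm2 was also called lower at CT20 (-1.35, adjusted p = 0.0208), where the controls still held control CT20 male 2, a mouse high in Orm2. At CT36 the change went from -3.58 (adjusted p = 0.000446) to -0.94 (adjusted p = 0.215), and at CT40 from -3.66 (adjusted p = 0.000186) to -1.21 (adjusted p = 0.0698). The sum of Orm1, Orm2 and Orm3, which takes the copies as 1 gene, changed by -0.74 ± 0.10 (adjusted p = 4.47e-09). Orm1 makes up most of this sum, with a control median of 556 CPM against 11.9 for Orm2 and 4.75 for Orm3. The sum therefore says little about Orm2 alone.

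Lcn2 rose with fasting. Female controls held 3.51 to 19.7 CPM with a median of 7.65 and fasted females 10.3 to 64.8 CPM with a median of 31.1. Male controls held 1.22 to 757 CPM with a median of 2.24 and fasted males 1.204 to 159 CPM with a median of 4.84. At CT28 all fasted mice (9.79, 25.2, 31.4 and 19.6 CPM) were above all controls (1.73, 1.57, 4.09 and 4.94 CPM). Such separation held in 10.4% of cases over all genes and times. The mean change was 1.11 ± 0.30 (adjusted p = 0.0014), and 1.62 (adjusted p = 8.19e-10) without the 3 mice. At single times Lcn2 was called higher at CT24 (3.68, adjusted p = 0.00327, and 1.69 without fasted CT24 male 1, adjusted p = 0.0441), CT28 (2.95), CT32 (2.93) and CT44 (2.45). At CT40 it was called lower, by -2.72 (adjusted p = 0.0141), while the value without control CT40 male 1 (757 CPM) was 0.89 (adjusted p = 0.291).

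Hp, the most abundant member per length, rose at CT24, CT28, CT32 and CT44, and without the 3 mice also at CT16 (0.50, adjusted p = 0.0404) and CT20 (0.70, adjusted p = 0.00207). At CT28 the fasted mice had 2825, 2377, 2545 and 2844 CPM and the controls 1301, 1297, 995 and 1245 CPM. At CT44 they had 2798, 3151, 2256 and 2587 CPM against 1528, 1653, 1360 and 1447 CPM. The groups did not overlap at CT24, CT28, CT32 and CT44, with the fasted mice higher, as in 10.4% of cases over all genes and times. The mean change was 0.69 ± 0.10 (adjusted p = 4.53e-08), and 0.81 without the 3 mice. At CT36 it was 0.25 (adjusted p = 0.577) with all mice and 1.01 (adjusted p = 0.000478) without the 3. At that time control CT36 male 1 held 7541 CPM and the other 3 controls 1596, 1091 and 1517 CPM. At CT40 it was -0.02 (adjusted p = 0.971) with all mice and 0.67 (adjusted p = 0.01) without the 3.

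Serpina3n was, with all mice, the first member called higher, at CT20. The fasted mice had 469, 610, 678 and 1019 CPM there, all above the controls at 294, 374, 297 and 367 CPM. Without the 3 mice its largest change was at CT44, with 747, 1389, 1458 and 736 CPM in fasted mice and 352, 372, 350 and 323 CPM in controls, a change of 1.63 (adjusted p = 1.97e-08). All fasted mice were above all controls at 5 times (CT20, CT24, CT28, CT32 and CT44), the most of any member. Over all genes and times, 10.4% of cases were of this kind. The mean change was 0.92 ± 0.11 (adjusted p = 3.86e-10) and 0.95 without the 3 mice. At CT24 the change was 1.66 with fasted CT24 male 1 (2304 CPM) and 0.77 (adjusted p = 0.0105) without it.

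Crp showed small differences. Its levels were 229 to 487 CPM in controls (median 350) and 208 to 447 CPM in fasted mice (median 314). The mean change was -0.09 ± 0.04 and missed the threshold (adjusted p = 0.0508). It was called lower at CT36 (-0.38, adjusted p = 0.0209) and CT40 (-0.36, adjusted p = 0.0206), and at neither time without the 3 mice (-0.16, adjusted p = 0.432, and -0.30, adjusted p = 0.0664). There was no time at which the 4 fasted and the 4 control values of Crp failed to overlap.

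The size of the fasting difference varied between the times for 7 of 10 members, against 33.7% of all genes. These were Saa2 (adjusted p = 5.57e-05), Saa1 (adjusted p = 0.000183), Lcn2 (adjusted p = 0.000525), Saa4 (adjusted p = 0.000729), Orm1 (adjusted p = 0.000788), Orm2 (adjusted p = 0.00179) and Saa3 (adjusted p = 0.00326). Serpina3n (adjusted p = 0.0925), Hp and Crp (both adjusted p = 0.159) missed the threshold. Without the 3 mice 7 were called as well, with Serpina3n (adjusted p = 0.0103) in and Orm2 (adjusted p = 0.076) out.

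The sexes differed in several members among fed mice. Among the 40 controls, 6 of 10 members were called, 1 higher and 5 lower in females, against 39.2% of all genes (20.6% higher and 18.6% lower). Saa1 was lower in females by -2.09 ± 0.37 (log2 of female over male, adjusted p = 1.08e-05), and by -1.06 (adjusted p = 0.000115) without the 3 mice. Saa4 was lower by -0.75 (adjusted p = 4.79e-05), with a median of 189 CPM in control females and 336 CPM in control males from CT12 on, and by -0.69 without the 3. Hp was lower by -0.63 (adjusted p = 0.000131) and by -0.34 without the 3, and Crp was higher by 0.17 (adjusted p = 0.0133) and by 0.23 without them. Saa2 at -1.38 (adjusted p = 0.00502) and Saa3 at -1.29 (adjusted p = 0.000458) were called with all mice, but at -0.03 (adjusted p = 0.978) and -0.23 (adjusted p = 0.265) not without the 3. Conversely Orm2 and Lcn2 were 0.11 (adjusted p = 0.825) and 0.16 (adjusted p = 0.817) apart with all mice, and higher in females by 1.13 (adjusted p = 6e-05) and 1.48 (adjusted p = 2.1e-05) without the 3.

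The fasting difference itself differed between the sexes in 2 of 10 members, Lcn2 and Hp, against 12.4% of all genes (5.35% with the female effect higher and 7.02% with it lower). For Lcn2 the mean change was 2.06 (adjusted p = 5.87e-08) in females and 0.16 (adjusted p = 0.838) in males, a difference of 1.90 ± 0.61 (adjusted p = 0.0322) that was not called without the 3 mice (0.87, adjusted p = 0.129), with limma (1.43, adjusted p = 0.162) or without the 2 control males (0.44, adjusted p = 0.627), which at 650 and 757 CPM belong to the male value. For Hp it was 1.04 in females and 0.34 (adjusted p = 0.0726) in males, a difference of 0.70 ± 0.20 (adjusted p = 0.0143) that was 0.45 (adjusted p = 0.0144) without the 3 and was not called without the 2 control males (0.37, adjusted p = 0.0691). Crp passed without the 3 mice, with a difference of -0.30 (adjusted p = 0.0115). The lower mean of Saa3 was called in males (-1.07, adjusted p = 0.0345) and stood at -0.02 (adjusted p = 0.948) in females, and the difference between the sexes, 1.05 ± 0.44, did not pass (adjusted p = 0.114).

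A rhythm of 24 h in the 40 controls was called for 7 of 10 members, against 45.4% of all genes. Crp peaked at CT21.2 with a difference of 0.58 (log2) between peak and trough (adjusted p = 1.87e-07), and Saa4 at CT15.0 with 1.04 (adjusted p = 1.37e-06); without the 3 mice these were 0.63 and 0.91. For the others the size depended on the 3 mice. Lcn2 had a peak to trough difference of 4.21 (adjusted p = 0.031) with all mice and 1.30 (adjusted p = 0.0119) without, Orm2 of 2.79 (adjusted p = 0.0317) and 0.81 (adjusted p = 0.0393), Hp of 0.80 (adjusted p = 0.0387) and 0.45 (adjusted p = 0.00137), Orm1 of 0.71 (adjusted p = 0.0348) and 0.32 (adjusted p = 0.0186), and Serpina3n of 0.74 (adjusted p = 0.0251) and 0.26 (adjusted p = 0.0454). Without the 3 mice peaks moved too, for Hp from CT16.0 to CT19.1 and for Orm2 from CT14.6 to CT18.8. For Lcn2 the peak went from CT14.7 to CT18.0, for Orm1 from CT15.5 to CT17.9 and for Serpina3n from CT14.0 to CT14.3. Saa1 and Saa2 missed the threshold with all mice (adjusted p = 0.182 and 0.337) and passed it without the 3, at 1.56 with a peak at CT20.3 (adjusted p = 0.0104) and at 1.85 with a peak at CT20.9 (adjusted p = 0.00626). Near these peaks the controls still held control CT20 male 2 and control CT24 female 1, both high in Saa1 and Saa2. In females alone neither rhythm was called (adjusted p = 0.176 for Saa1 and 0.0701 for Saa2). Fasted and control rhythms differed for 6 of 10 members (Saa1, Saa2, Orm2, Lcn2, Hp and Serpina3n), against 25.5% of all genes. Without the 3 mice they differed for 5, with Saa3 (adjusted p = 0.023) in and Hp (adjusted p = 0.16) and Serpina3n (adjusted p = 0.37) out. For Saa4 no difference was called (0.99 with a peak at CT14.5 in controls, 1.23 with a peak at CT14.2 in fasted mice, adjusted p of the difference 0.831), nor for Crp (0.53 at CT21.4 and 0.64 at CT22.4, adjusted p = 0.522).

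Mice of one sex, treatment and time differed in many of these genes at once. The difference between replicate 1 and replicate 2 was taken for each gene in each of the 40 such pairs, which removes treatment, time and sex. Over the 45 pairs of members, all 45 correlations were above 0 and the median Pearson r was 0.692 (median Spearman rho 0.385). It was 0.255 without the 3 pairs that hold the 3 mice, and 35 of 45 were then above 0. After adjustment over the 45 relations, 37 were below 0.05 by permutation of Pearson's r and 27 by that of Spearman's rho. By Pearson's r, 20 were below it without the 2 control males and 13 without the 3 mice. The share over pairs of all genes was not computed. Saa1 and Saa2 had an r of 0.976 and a rho of 0.871 (both permutation p = 1e-05, the smallest the permutations can give, adjusted p = 3.46e-05 and 9e-05), an r of 0.949 without the 2 farthest pairs and of 0.889 without the 3 mice. Saa1 and Lcn2 had an r of 0.903 and a rho of 0.763 (both permutation p = 1e-05), an r of 0.852 without the 2 farthest pairs and of 0.682 without the 3 mice. Orm1 and Orm2 had an r of 0.887 and a rho of 0.762 (both permutation p = 1e-05), an r of 0.742 without the 2 farthest pairs and of 0.708 without the 3 mice. The relation of Hp with Orm1 rested on the 3 mice, with an r of 0.524 (permutation p = 0.00173, adjusted p = 0.00278), a rho of -0.178 (permutation p = 0.271, adjusted p = 0.311), an r of -0.0559 without the 2 farthest pairs and of -0.254 without the 3 mice. Saa4 had a rho of 0.522 with Saa1 (permutation p = 0.00054; for r, p = 0.0557) and of 0.368 with Saa2 (permutation p = 0.0197; for r, p = 0.12). The points share depth and library preparation, and Saa1 with Saa2 and Orm1 with Orm2 share some sequence.

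**Figure D4:**
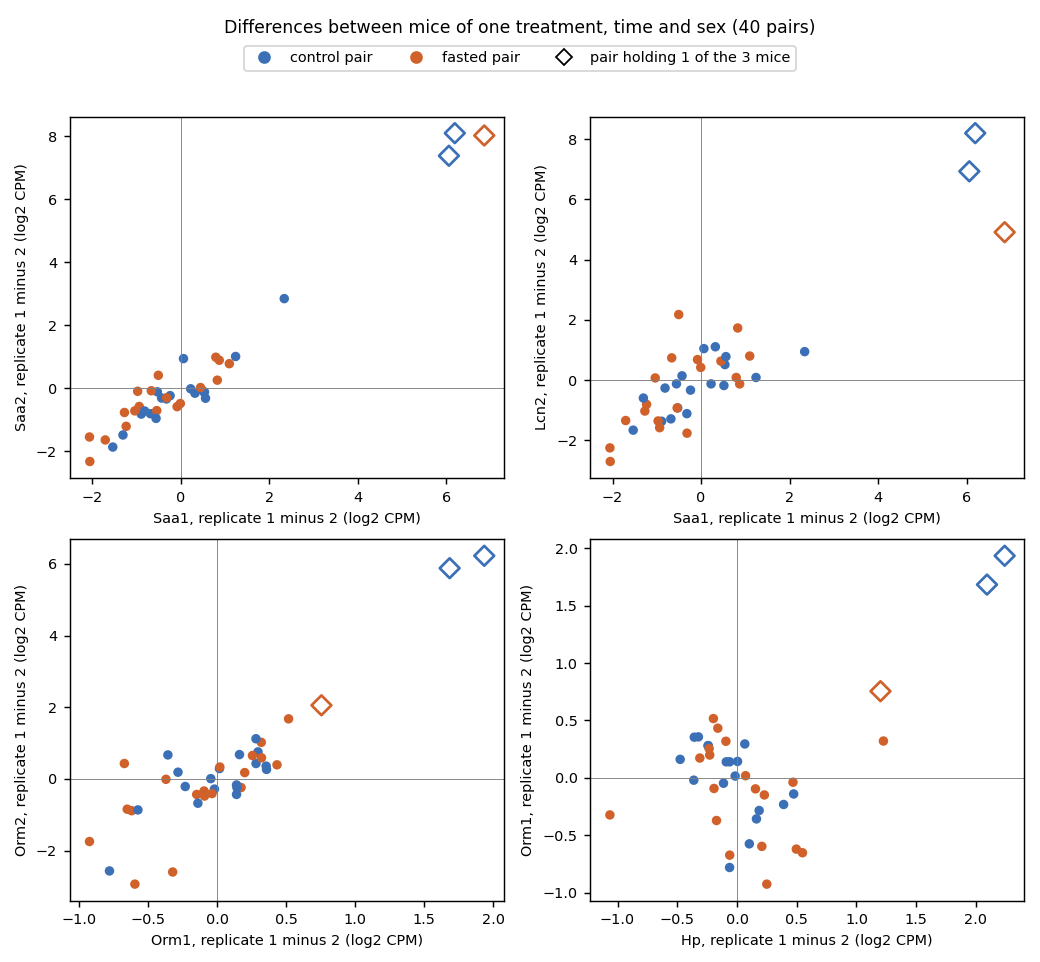
Difference between replicate 1 and replicate 2 of one sex, treatment and time (log2 CPM) in 1 acute phase gene against that in another, for 4 pairs of genes chosen after their values were seen, with 40 points each and diamonds for pairs that hold 1 of the 3 outlying males. Saa1 with Saa2 (r 0.976) and Orm1 with Orm2 (r 0.887) follow a line through all points, while Hp with Orm1 (r 0.524) is drawn out by the diamonds.

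Outside the 10, the genes whose differences within pairs were most like the members' mean were Apcs, which encodes the pentraxin serum amyloid P (r 0.907 over 40 pairs, 0.506 without the 3 mice), Itih4, an inter-alpha-trypsin inhibitor chain (0.876 and 0.577), Cpb2, the thrombin-activated carboxypeptidase (0.822 and 0.684), Ifitm2, an interferon-induced membrane protein (0.816 and 0.265), and Fgl1, a secreted fibrinogen-like protein of hepatocytes (0.814 and 0.386). The order depended on the 3 mice: C4b (0.803) and Dap (0.790) ranked lower with all mice but had 0.723 and 0.658 without them. Apcs stood at 322, 259 and 133 CPM in control CT36 male 1, control CT40 male 1 and fasted CT24 male 1.

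The rest of the pathway moved in both directions under fasting, as did all genes, of which 62.5% were called, 29.5% higher and 32.9% lower. Of 25 other positive acute phase genes, 13 were higher and 6 lower (median log2 change 0.17), led by the metallothioneins Mt2 (4.61, from a median of 4.45 to 151 CPM) and Mt1 (3.64), which bind zinc, and by Il1rn (2.45), the interleukin-1 receptor antagonist. Of 10 negative acute phase genes, 6 were higher and 4 lower (median 0.10), with Serpina6, the corticosteroid carrier, at -1.71 and Apoa1, of high-density lipoprotein, at 0.81. Of the 5 cytokines measured, 0 were higher and 3 lower: Tnf at -0.85 (adjusted p = 0.00323), Il1a at -0.42 (adjusted p = 5.63e-05) and Lif at -1.26 (adjusted p = 0.00422), while Il1b was at -0.02 (adjusted p = 0.963) and Ctf1 at 0.10 (adjusted p = 0.211). Lif and Tnf were barely detected, with medians of 2 counts (0 to 12) and 8 counts (0 to 38) per library, so their changes are uncertain. Of 14 receptors and signalling genes, 8 were higher and 3 lower, with the receptors Il1r1 at 1.40, Il6ra at 1.15 and Lifr at -1.38. Of 12 transcription factors and their inhibitors, 6 were higher and 5 lower, with Cebpd at 2.07, Cebpb at 1.09 and Nfkbia, the NF-kB inhibitor, at 0.79.

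Markers of other cells gave these counts for the same mean difference, to be read against the same 62.5% of all genes called and 32.9% lower. Macrophage markers were lower in 7 of 8 and higher in 0 (median -0.38, with Adgre1 at -0.67, Cd5l at -0.45 and Cd68 at -0.42). Neutrophil markers were called in 0 of 9 by edgeR (0 also at an unadjusted p under 0.05, and 0 called by limma or DESeq2). Among them Ngp, Mpo, Elane, Ltf and Camp had standard errors of 265 to 2885 (log2), so no change in these genes could be called. Lymphocyte markers were lower in 4 of 8, cholangiocyte markers in 4 of 5, red cell markers in 2 of 5 and pancreas markers in 2 of 6, with 0 higher in each. Endothelial and stellate markers were higher in 2 and lower in 4 of 8, and hepatocyte markers higher in 6 and lower in 1 of 8. Of 3 adipocyte markers measured, Cidec was higher by 5.62, a gene that fasted hepatocytes also express. Adipoq and Cfd, and Ctrb1, Cpa1, Prss2 and Pnlip of the pancreas markers, had standard errors of 2143 to 6567 and could not be called either. The part of these cells in the members' fasting differences was not tested.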

How the data were processed

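Raw gene counts per library, deposited by the authors with no normalization, were used for all 80 livers. Per the labels, paired reads came from a stranded poly(A) library, and the submitters' processing notes name Trimmomatic, HISAT2, DESeq2 and GRCm39, while the counting program is not given in the sources used here. Groups came from the titles. Counts were scaled by TMM and shown as CPM. They were tested with edgeR 4.0.16 (R 4.3.3), using quasi-likelihood on cell means of treatment, time and sex over genes passing filterByExpr, with Benjamini-Hochberg adjustment over all genes tested. Rhythms used a cosine of 24 h. Alternatives included limma 3.58.1, DESeq2 1.42.0, other filters and scalings, each sex alone and left-out mice. Likeness was tested with 100000 permutations. The fits were tested on simulated data.

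The members and the gene lists were chosen with earlier results of these data known. Named from the lists were all cytokines past the filter and at most 3 genes per list, those with the largest called mean change among genes averaging 1 or more on the log2 CPM scale, and the 5 genes most like the members within pairs of mice. Any other gene named was chosen after its values were seen. No count column was left without a sample. The precision of single values is limited by 4 mice per group, and p-values measure the spread between these mice.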

Additional observations from a re-analysis of the deposited data

Results flagged for a closer look

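In groups of mice, the gap between the highest or lowest mouse and its nearest neighbour was set against the range of the group on the log2 CPM scale, and exceeded Dixon's 95% critical value for 4 samples in 17 of 200 groups of 1 gene, 1 treatment and 1 time. Chance alone gives about 1 in 20, or 10. The 17 values came from 10 mice: 4 each from control CT36 male 1 and control CT40 male 1, 2 from fasted CT24 male 1, all high, and 1 each from 7 others.

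Control CT36 male 1 stood out in Saa2 (5257 CPM), Saa3 (146 CPM), Orm1 (2036 CPM) and Lcn2 (650 CPM). Control CT40 male 1 stood out in Saa2 (5338 CPM), Saa3 (207 CPM), Orm1 (2157 CPM) and Serpina3n (1268 CPM). Fasted CT24 male 1 stood out in Saa1 (3620 CPM) and Saa2 (2794 CPM). High values were those of Saa3 in control CT28 female 2 (5.68 CPM) and fasted CT40 female 1 (2.54 CPM) and of Orm2 in fasted CT44 female 1 (10.7 CPM). Low values were those of Saa4 in fasted CT24 female 1 (48.0 CPM), Orm1 in fasted CT16 male 1 (351 CPM), and Hp in control CT28 female 1 (995 CPM) and fasted CT40 female 2 (1261 CPM).

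The fasting difference was larger in females than in males by 1.90 (log2) for Lcn2 and by 0.70 for Hp, by a test of the difference itself. It differed between times, by the same kind of test, for Saa1 (adjusted p = 0.000183), Saa2 (adjusted p = 5.57e-05), Saa3 (adjusted p = 0.00326), Saa4 (adjusted p = 0.000729), Orm1 (adjusted p = 0.000788), Orm2 (adjusted p = 0.00179) and Lcn2 (adjusted p = 0.000525), all from edgeR with every mouse included. Without the 3 outlying males the sex difference was 0.87 (adjusted p = 0.129) for Lcn2 and 0.45 (adjusted p = 0.0144) for Hp, and without the 2 control males alone neither was called (0.44, adjusted p = 0.627, and 0.37, adjusted p = 0.0691). With limma, Lcn2 was not called either (adjusted p = 0.162), and Hp was (adjusted p = 0.0359). Without the 3 males, among these 7 only Orm2 no longer passed the test between times (adjusted p = 0.076).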

How the results depend on the processing

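Counts below are members (of 10) with an adjusted p below 0.05, from all mice and then under the setting named. Settings without the 3 mice, and without CT36 and CT40, were chosen after the data were seen. For the mean difference, 9 members became 5 without CT36 and CT40. For single times, 34 of 90 became 66 with no filter on low counts and 21 at an adjusted p below 0.01. For the difference between times, 7 became 4 with limma and 0 in females alone. For the difference between sexes, 2 became 8 with no filter, 1 without control CT36 male 1 and control CT40 male 1 (Crp, while Lcn2 and Hp lost their calls), and 0 at an adjusted p below 0.01. With no filter the estimates hardly moved, but the standard error of the Lcn2 sex difference fell from 0.61 to 0.08. The extra calls of that setting rest on this smaller estimate of the spread. For the control rhythm, 7 became 2 with limma, in females alone and at an adjusted p below 0.01. For the rhythm difference, 6 became 1 with limma and at an adjusted p below 0.01, 3 without the 2 control males, and 0 in females alone. In females alone, edgeR gave an unadjusted p under 0.05 in 4 members for the difference between times and in 2 for the rhythm difference. For likeness, 37 of 45 became 20 without the 2 control males and 13 without the 3 mice. Values outlying by Dixon's rule went from 17 to 34 of 200 groups on linear CPM. The mean of Saa3 changed sign, from -0.54 to 0.052 without the 2 control males, 0.035 without the 3 mice and 0.11 without CT36 and CT40.

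With one replicate number left out of every group of one sex, the mean gave 6 to 9 (6 without female replicate 1), single times 17 to 36 (17 without female replicate 1), the difference between times 1 to 8 (1 without female replicate 2), the difference between sexes 0 to 4 (0 without male replicate 1 or female replicate 1, with 2 and 3 at an unadjusted p under 0.05), the control rhythm 2 to 8 (2 without male replicate 2) and the rhythm difference 1 to 5 (1 without male replicate 2). Each such fit removes 20 libraries, and the cause of these losses was not tested.

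Replicate numbers were not treated as pairs in the main fits. The correlation of same-numbered control and fasted mice over 20 strata of time and sex was -0.154 to 0.499 (median 0.000441). It was over 0.1 in 5 strata and under -0.1 in 2, and the median does not show whether mice were paired in single strata. A replicate block gave 9 members for the mean, 2 for the difference between times, 2 for that between sexes (Hp and Crp, with Lcn2 lost), 4 for the control rhythm and 2 for the rhythm difference. For single members, the mean difference kept its sign and its side of the threshold in 158 of 184 fits.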
